A study of Rattus norvegicus with 6 samples.

Results

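The cells described here are rat testis cells with a count above 0 in at least 2 of the 5 genes Apoe, Fos, Cd74, Selenop and Lyz2, and they are called members. They numbered 683 of 11744 cells, 5.82% of all cells in 6 libraries. The 5 genes chose the cells, so the levels of these genes in members are given as a description, and no test compares members with the other cells. Each library came from the testis of 1 SD rat, a laboratory strain of the brown rat. The 3 control animals were normal rats, and the 3 stressed animals had been through a model of psychological stress in which a terrifying sound is played. The labels give no genotype, age, length of stress or time of sampling. The series asks how such stress affects the formation of sperm.

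Apoe, Cd74, Lyz2 and Selenop are known best from somatic cells, while Fos can be induced in many cell types. Apoe encodes apolipoprotein E, a lipid carrier that macrophages secrete. Cd74 encodes the invariant chain that escorts class II major histocompatibility (MHC) molecules in antigen-presenting cells, and Lyz2 encodes a lysozyme of macrophages and other myeloid cells. Selenop encodes the secreted protein that carries selenium to tissues, the testis among them, where developing spermatids build the selenoprotein Gpx4 into the sperm midpiece. Fos is an immediate early gene, switched on within minutes of many stimuli as a part of the transcription factor AP-1. Resident macrophages sit between and around the seminiferous tubules, whereas spermatocytes, which go through meiosis, and the haploid spermatids that follow, first round and then elongating, lie inside them.

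Most members came from 2 animals. Members made up 17.4% of the cells of control replicate 2 (313 of 1801 cells, Wilson 95% interval 15.7 to 19.2) and 63.8% of stressed replicate 1 (261 of 409, 59.0 to 68.3). Together these libraries held 574 members, 84.0% of all. In the other libraries the share was 1.11% in control replicate 1 (26 of 2342 cells), 0.693% in control replicate 3 (17 of 2453), 1.64% in stressed replicate 2 (41 of 2506) and 1.12% in stressed replicate 3 (25 of 2233). The high libraries were thus 1 of each group, and the remaining 4 overlapped between groups.

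The share did not separate stressed from control animals. It was 6.39% ± 9.52 (SD, n = 3) in controls and 22.2% ± 36.0 (SD, n = 3) in stressed animals, a difference of 15.8 percentage points (exact permutation test of the group means, 2-sided, p = 0.5, and 1.0 after Benjamini-Hochberg adjustment over 6 tests). The smallest p that 3 against 3 animals can give is 0.1. Without stressed replicate 1 the difference was -5.02 points, and without both high libraries it was 0.476 points.

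**Figure D1:**
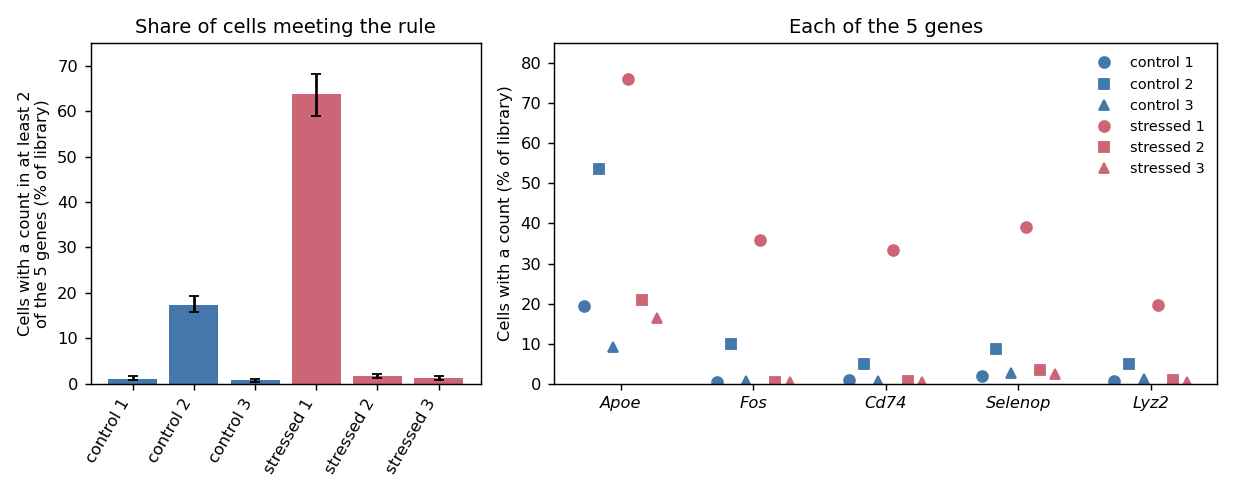
The left panel shows the percentage of cells of each library that were members, with Wilson 95% intervals, and the right panel the percentage of cells with a count in each of the 5 genes, 1 point per library, controls in blue and stressed animals in red. Stressed replicate 1 (63.8%) and control replicate 2 (17.4%) stand above the other 4 libraries, which lie between 0.693% and 1.64%.

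Stressed replicate 1 was also the smallest library, with 409 cells and 16756543 counts, against 1801 to 2506 cells and 73650164 to 114984746 counts in the others. Whether each count stands for a molecule or for a read is not given in the sources used here, so the intervals cover counting error only. Libraries shared 2 cell barcodes, and 0 members had one of these. Their median depth was 33851 to 43020 counts per cell, and that of the other cells 27985 to 41632, with members deeper in 5 of 6 libraries. With each cell thinned to 10000 counts, which no cell fell short of, members made up 37.2% of stressed replicate 1, 5.94% of control replicate 2 and 0.285% to 0.493% of the others.

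Apoe was the gene that most members shared. It had a count in 76.0% of the cells of stressed replicate 1, 53.6% of control replicate 2 and 9.09% to 20.8% of the other libraries. Of the 683 members, 663 held Apoe with at least 1 of the other genes. Selenop was the partner in 346 members, Fos in 308, Cd74 in 223 and Lyz2 in 159.

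Fos was found in 35.9% of the cells of stressed replicate 1, 9.77% of control replicate 2 and 0.470% to 0.652% of the other libraries. Cd74 was found in 33.5%, 4.83% and 0.493% to 0.897%, in the same order. Selenop was found in 39.1%, 8.61% and 1.88% to 3.27%, and Lyz2 in 19.6%, 4.94% and 0.448% to 1.10%. All 5 genes therefore ranked the 2 libraries in the same way, and for each of the 5 the remaining libraries lay well below. No gene separated the groups (exact permutation p = 0.6 for Apoe and Selenop, 0.8 for Fos, 0.9 for Lyz2 and 1.0 for Cd74, each 1.0 after adjustment), and each difference turned negative without stressed replicate 1.

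Single cells held a large part of the Fos and Selenop counts. In the members of stressed replicate 1, Fos was at 85.5 counts per 1000000 counts of the same cells (CPM), with a median of 1 count in a cell that had any, and a single cell held 19.1% of its counts. Selenop was at 105 CPM there, and a single cell held 25.8%. In control replicate 2 the top cell held 30.1% of the Selenop counts but 6.07% of the Fos counts. In libraries with few members single cells weighed more, as in control replicate 3, where the top cell held 74.1% of the Cd74 counts of members and the top cell for Lyz2 77.8%.

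Apoe counts were spread differently, since cells that were not members also held them. Members held 91.3% of the Apoe counts of stressed replicate 1, 42.7% of control replicate 2 and 4.67% to 11.6% of the others. Its level in members was 126, 136 and 342 CPM in the controls, in replicate order, and 469, 118 and 95.04 CPM in the stressed animals. In the other cells it was 29.6, 43.3 and 18.2 CPM, and 105, 31.2 and 25.9 CPM. For Fos, Cd74, Selenop and Lyz2 members of stressed replicate 1 held at least 99.2% of the counts.

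Cells that just met the rule were deeper than cells that just missed it in 6 of 6 libraries. Cells with a count in 2 of the genes had a median of 35773 to 46405 counts and those with 1 a median of 30293 to 45306, with the widest gap in stressed replicate 3 (45140 against 30293). In stressed replicate 1 the 67 cells with 1 gene had a median of 32781 counts and the cells with 2 had 35773, and the median number of genes detected was 2906 and 1154. In control replicate 2 the 726 cells with 1 gene had a median of 2306 genes and the 216 cells with 2 had 3048.5. The number of genes detected thus went opposite ways in the 2 libraries. A further 88, 58 and 14 cells of stressed replicate 1 held 3, 4 and 5 of the genes, and 75, 20 and 2 cells of control replicate 2. In the remaining libraries 5 cells held more than 2.

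Members carried the markers of spermatocytes and spermatids. Cells were clustered without the 5 genes and without the macrophage, immediate early, MHC class II and somatic gene lists, and each of the 11 clusters was classed by germ cell markers as spermatocyte-like (2 clusters), round spermatid-like (4) or elongating spermatid-like (5). No cluster was classed as somatic. The somatic lists were left out of the clustering and the smallest cluster held 310 cells, so a few somatic or mixed cells could lie within these clusters. Whether any did was not tested. The 20 elongating spermatid markers include Tnp1, Tnp2 and Prm2, which package sperm DNA, and Oaz3 and Smcp. They summed to 122993, 92087 and 132041 CPM in the members of the controls, in replicate order. In members of the stressed animals they summed to 135680, 152125 and 142751 CPM. In other cells weighted to the members' class makeup they summed to 96037 to 159526 CPM. In single members the germ cell markers together came to between 1581 and 464100 CPM, with a median of 139033. The 5 genes made up a median of 0.0517% of a member's counts in stressed replicate 1 and at most 1.01%.

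Members of most libraries were elongating spermatid-like. In replicate order, these made up 76.9%, 42.5% and 64.7% of the controls' members and 84.7%, 92.7% and 76.0% of the stressed animals' members. Their share among other cells was 48.2%, 60.1% and 45.6%, and 31.8%, 65.7% and 43.2%. Control replicate 2 was the exception, with 163 of its 313 members, 52.1%, round spermatid-like, against 29.0% of its other cells. The same order showed in the share of each class that were members, which in stressed replicate 1 was 82.5% of elongating, 27.8% of round and 30.8% of spermatocyte-like cells, and in control replicate 2 was 12.95%, 27.4% and 9.497%. The median depth of the classes in these libraries lay between 28775 and 40519 counts. Whether free RNA in the suspension gave some of these counts was not tested.

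**Figure D2:**
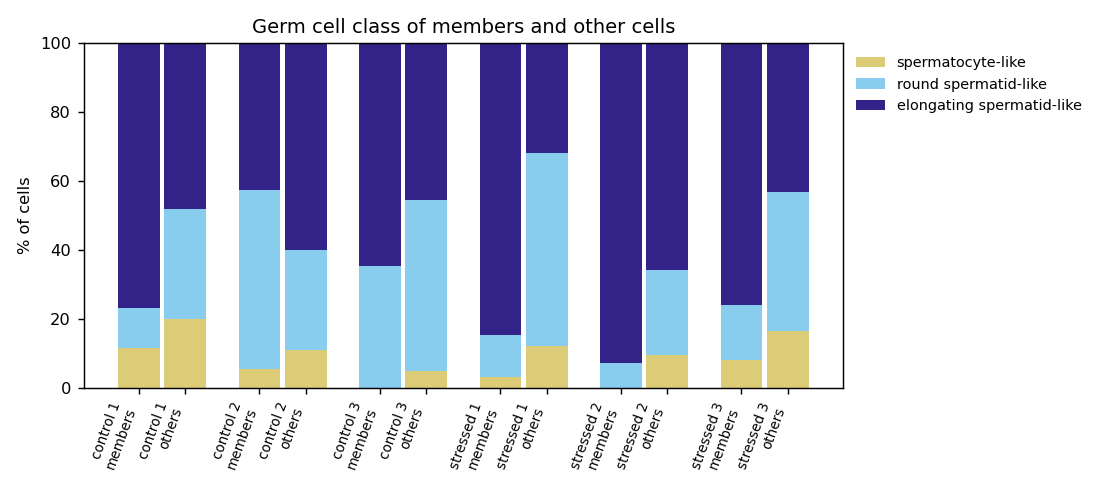
Each bar splits the members or the other cells of a library by class (spermatocyte-like in one colour, and the 2 spermatid-like classes, round and elongating, in others), as percentages of cells. Elongating spermatid-like cells are the most numerous class of members in every library except control replicate 2, where round spermatid-like cells make up 52.1%.

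Among libraries with at least 20 members, elongating spermatid-like cells were 59.7% ± 24.3 of members in controls (SD, n = 2) and 84.5% ± 8.34 in stressed animals (SD, n = 3). Control replicate 3, with 17 members, was left out. The difference of 24.7 points was not past the spread between animals (exact permutation test, 2-sided, p = 0.2, where 0.1 is the smallest possible). It was 7.53 points without control replicate 2. Among cells with at least 3 of the genes the share was 36.1% in control replicate 2 and 88.1% in stressed replicate 1.

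Apoe itself followed class in the libraries with few members. In control replicate 1 it was found in 35.5% of elongating, 3.92% of round and 4.07% of spermatocyte-like cells, at median depths of 33089, 38471 and 34860 counts. In stressed replicate 2 the shares were 29.3%, 3.24% and 6.93%, and in stressed replicate 3 31.2%, 5.25% and 4.66%. In these 3 libraries, then, Apoe counts lay mainly in elongating spermatid-like cells. Cd74, in contrast, was in 0.792%, 1.35% and 0.428% of the 3 classes of control replicate 1, and Lyz2 in 0.704%, 0.406% and 0.642%.

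Members of stressed replicate 1 held fewer different genes than the other cells of that library. Their median was 1203 genes at 40645 counts, against 3145.5 genes at 30859.5 counts. Within the elongating spermatid-like class it was 1139 against 1913 genes, and after thinning all cells to 10000 counts it was 891 against 1417. In control replicate 2 members of this class held more genes than other cells, 2399 against 2061.5, or 1575 against 1453.5 after thinning. Mitochondrially encoded genes gave a median of 0.104% of counts in members and 0.0208% in other cells of stressed replicate 1, and 0.0569% and 0.0119% in control replicate 2. Their part in the differences described next was not tested.

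Few genes were higher in members in every library. Of 6091 genes other than the 5, with a mean of at least 5 CPM in members, 45 (0.739%) were higher in members of each library than in its other cells weighted to the same class makeup, and the median log2 ratio (with 1 CPM added to both sides) over these genes was -0.22. Of 6131 genes with at least 5 CPM in other cells, 331 (5.4%) were lower in members of each library. Unless cluster weights are named, CPM of other cells carries these class weights until stressed and control animals are compared. Shares of cells, and sums by number of the 5 genes, are not weighted. Membership was set by counts of the same cells, and a library with 17 to 41 members lists many genes at 0, so these counts carry no test.

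The largest ratio among genes higher in every library was that of Gpx1, which encodes the cytosolic glutathione peroxidase, a selenoenzyme that removes hydrogen peroxide. It was at 5.62, 2.62 and 32.5 CPM in members of the controls, in replicate order, and at 11.04, 1.09 and 1.85 CPM in those of the stressed animals, against 0.364 to 2.29 CPM in other cells (mean log2 ratio 1.72 ± 1.41, SD, n = 6). Control replicate 3 and stressed replicate 1 were the highest. In control replicates 1 and 3 and stressed replicate 2 all Gpx1 counts of members (6, 26 and 2) came from 1 cell, while 21 members of control replicate 2 and 47 of stressed replicate 1 held a count. Gpx1 belongs to the selenoprotein list of 12 genes, of which it was the single member higher everywhere. Gpx4, the peroxidase of the sperm midpiece, was at 4040 to 8351 CPM in members and 4896 to 7478 CPM in other cells, with a mean log2 ratio of 0.06 ± 0.17 (SD, n = 6).

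Genes of general cell functions were also among the largest. Ddx56, an RNA helicase of ribosome assembly, had a mean log2 ratio of 1.54 ± 1.17, and Idh3g, a subunit of mitochondrial isocitrate dehydrogenase, 1.05 ± 0.75 (SD, n = 6 each). In control replicate 3, stressed replicate 2 and stressed replicate 3 the counts of each of these 2 genes came from 1 member. With other cells weighted by the 11 clusters in place of the 3 classes, a choice made after seeing the data, Ddx56 turned to -0.95 in stressed replicate 1. Cluster weights rest on few other cells in that library. Members were 124 of 137, 46 of 55 and 35 of 40 cells of the clusters that held most of them. They were 8 of 8 cells of another cluster, which therefore had no weight. Ube2f, an enzyme of NEDD8 conjugation, was at 111, 100.2 and 45.1 CPM in members of the controls and 82.2, 51.4 and 85.8 CPM in those of the stressed animals, in replicate order, against 25.0 to 79.2 CPM in other cells (0.82 ± 0.37). Mysm1, a deubiquitinase of histone H2A, was at 56.8 CPM in members and 10.2 CPM in other cells of stressed replicate 1, but at 10.1 to 17.0 CPM in members elsewhere. Cpt1c, Nrg4, Prr3, Cdh20, Rbm5 and the class I MHC gene RT1-CE2 also stood among the 15 largest, with mean ratios of 0.56 to 0.87. Shares of cells, without class weights, often went the other way in stressed replicate 1. Ube2f was found there in 23.8% of members and 54.1% of other cells, and Mysm1 in 13.03% and 16.2%. Rbm5 was found in 15.3% and 41.9%, and Cdh20 in 2.68% and 22.3%. The share there was also lower in members for Ddx56, Cpt1c, Nrg4, Prr3 and RT1-CE2, and higher for Idh3g and Gpx1. In control replicate 2 Ube2f, Mysm1, Rbm5 and Cdh20 each had a higher share in members. With cluster weights Cpt1c turned to -0.02 in stressed replicate 1 and RT1-CE2 to -0.01 in control replicate 2. RT1-CE2 has near-identical relatives, so its counts may be shared with them.

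Genes lower in every library were mostly low in members of the small sets. Lrrc73 was at 12.2, 52.4 and 0 CPM in members of the controls, in replicate order, and 17.4, 10.4 and 25.8 CPM in those of the stressed animals, against 53.1, 114 and 37.6 and 72.3, 15.9 and 31.6 CPM in other cells. Znf768 (mean log2 ratio -2.01 ± 1.12), Gm5136 (-1.90 ± 1.73), the Hsp70 nucleotide exchange factor gene Hspbp1 (-1.80 ± 1.41), Armh1 (-1.76 ± 1.17), Gimd1 (-1.75 ± 1.27) and Zfp189 (-1.74 ± 0.62) were the other symbols among the 10 most negative (SD, n = 6 each). In control replicate 3, with its 17 members, all of these but Hspbp1 were at 0 in members, which allows up to 3 counts. With cluster weights Gm5136 turned positive in control replicate 2 (0.16) and stressed replicate 1 (0.11), Hspbp1 in control replicates 2 (0.08) and 3 (0.13), Armh1 in control replicate 2 (0.21) and Zfp189 in stressed replicate 1 (0.06). Lrrc73, Znf768 and Gimd1 stayed negative in 6 of 6 libraries.

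The 2 libraries with many members shared a set of genes that the 5 genes did not include. At least 2-fold higher in the members of both control replicate 2 and stressed replicate 1 were 62 of 5519 genes (1.12%) with at least 5 CPM in both, and 64 of 5556 genes (1.15%) were at least 2-fold lower. With cluster weights 27 of the 62 were still at least 2-fold higher in both. The count was 117 in cells with at least 3 of the 5 genes and 130 after thinning. Genes low in other cells reach 5 CPM in members through being high there, so a count within a list carries no weight. Of the 62, 6 were stromal markers, of 6 that reached 5 CPM in both, and 1 was an MHC class II gene, of 2. The macrophage, immediate early and elongating spermatid lists gave 0, of 2, 4 and 20 genes that reached it.

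The 6 stromal markers were at least 2-fold higher with cluster weights too, which rest on few other cells in stressed replicate 1. Dcn encodes decorin, a proteoglycan that binds collagen. In stressed replicate 1 it was at 83.0 CPM in members and 3.79 CPM in other cells, and in control replicate 2 at 9.43 and 0.999 CPM. In the other 4 libraries members were at 0 to 0.936 CPM. Sparc, a matrix protein, was at 66.5 against 7.16 CPM in stressed replicate 1, 12.6 against 1.76 CPM in control replicate 2 and 10.3 against 0.498 CPM in control replicate 1. Gsn, which encodes the actin-severing protein gelsolin, was at 45.3 against 1.88 CPM and 10.6 against 1.36 CPM in the first 2 of these libraries. Mgp, Igfbp7 and Sparcl1 completed the 6.

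The rest of the 62 were of many kinds, from the ribosomal protein genes Rpl19, Rpl26 and Rpl35 to the germ cell genes Dazl and Piwil1. For Dazl a single cell held 491 of the 498 counts of members of stressed replicate 1. It was found in 1.53% of members and 2.03% of other cells there. The genes given next were picked from them after their values were seen. Igfbp6 and Igfbp3, which bind insulin-like growth factors, were at 31.9 and 17.7 CPM in members of stressed replicate 1 against 2.38 and 1.29 CPM in other cells. Ptn, the growth factor pleiotrophin, was at 43.1 against 7.34 CPM, and C1r, a complement protease, at 23.8 against 2.92 CPM. Ifitm3, an antiviral membrane protein, was at 37.6 against 6.50 CPM, and Ifi27 at 22.9 against 3.60 CPM. B2m, the light chain of class I MHC, was at 48.7 against 4.28 CPM, and it was higher in members in 5 of 6 libraries. Gsta1, a glutathione transferase, was at 70.6 against 3.12 CPM. Each of these was also at least 2-fold higher in members of control replicate 2, where members were at 6.87 to 17.9 CPM.

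**Figure D3:**
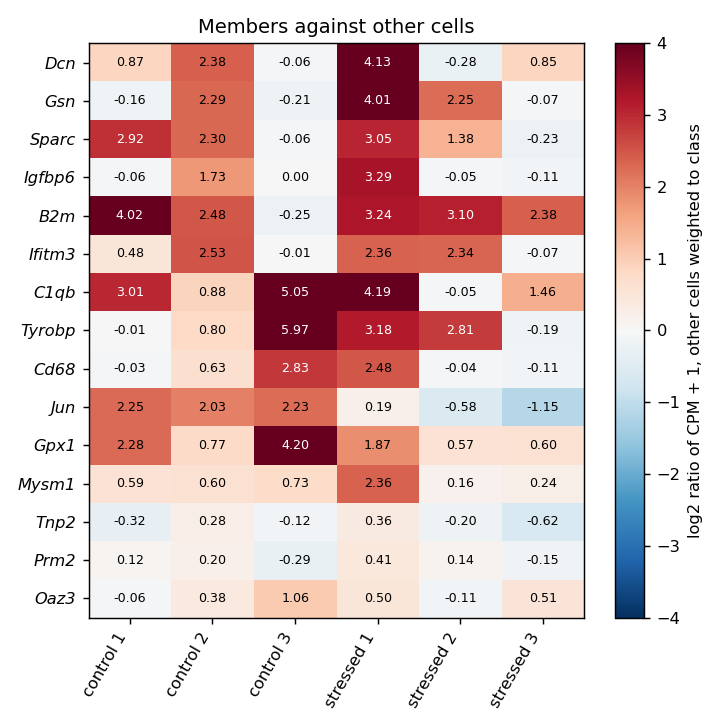
Colours and numbers give the log2 ratio of CPM + 1 in members over other cells of the same library, with other cells weighted to the members' class makeup, for stromal and somatic genes (top), macrophage genes, Jun, 2 genes higher in every library and 3 spermatid genes (bottom). Dcn reaches 4.13 in stressed replicate 1 and 2.38 in control replicate 2, while Tnp2, Prm2 and Oaz3 stay between -0.62 and 1.06.

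Single cells held much of this RNA, yet many members carried a little. In stressed replicate 1 the top cell held 38.0% of the 977 Dcn counts of members, 33.1% of the 783 Sparc counts and 37.3% of the 573 B2m counts. Dcn was found in 42 members there, 16.1%, against 3.38% of other cells, Sparc in 33.0% against 9.46% and B2m in 37.5% against 6.76%. In control replicate 2 Dcn was found in 9.27% of members and 1.81% of other cells, and Sparc in 17.9% and 3.23%. At least 1 stromal marker was found in 75.5% of members and 29.7% of other cells of stressed replicate 1, and in 59.4% and 20.2% of control replicate 2. In the other libraries it was found in 0% to 8% of members and 3.98% to 7.08% of other cells. The summed level of the 12 stromal markers was 280.1 CPM in members and 37.1 CPM in weighted other cells of stressed replicate 1, and 70.9 and 13.5 CPM in control replicate 2. It was also higher in members of control replicate 1 (28.1 against 5.17 CPM) and stressed replicate 2 (28.4 against 3.98 CPM), where 2 members of each library held any. It was lower in members of control replicate 3 (0 against 3.85 CPM) and stressed replicate 3 (2.77 against 4.65 CPM). At least 3 stromal markers were found in 45 members of stressed replicate 1, 33 of control replicate 2 and 0 or 1 of each other library. Among other cells they were found in 2 of 148 of stressed replicate 1, 15 of 1488 of control replicate 2 and 0 or 1 of each other library. The part of such members in the results that rest on these 2 libraries was not tested.

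The level of the stromal list rose, unevenly, with the number of the 5 genes in a cell. In stressed replicate 1 its sum was 10.5 CPM in cells with none of the genes, 37.5 with 1, 110.0 with 2, 332 with 3, 137 with 4 and 1335 CPM in the 14 cells with all 5. In control replicate 2 it was 8.59, 13.9, 56.7, 115 and 72.2 CPM in cells with 0 to 4 of the genes. These sums are not weighted by class. In stressed replicate 1 elongating spermatid-like cells were 12.3% of cells with none of the genes and 92.9% with all 5. Leydig markers summed there to 96.0 CPM with none of the genes and to 42.1, 17.5, 64.9 and 31.5 CPM with 2 to 5. Against weighted other cells, Leydig markers were lower in members of control replicate 2 alone (63.0 against 78.0 CPM). They summed to 48.7 against 35.8 and 81.3 against 39.6 CPM in control replicates 1 and 3. In stressed replicates 1 to 3 they summed to 38.3 against 27.3, 31.7 against 24.0 and 45.2 against 28.4 CPM. Sertoli markers summed to 151 against 184 CPM in stressed replicate 1.

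**Figure D4:**
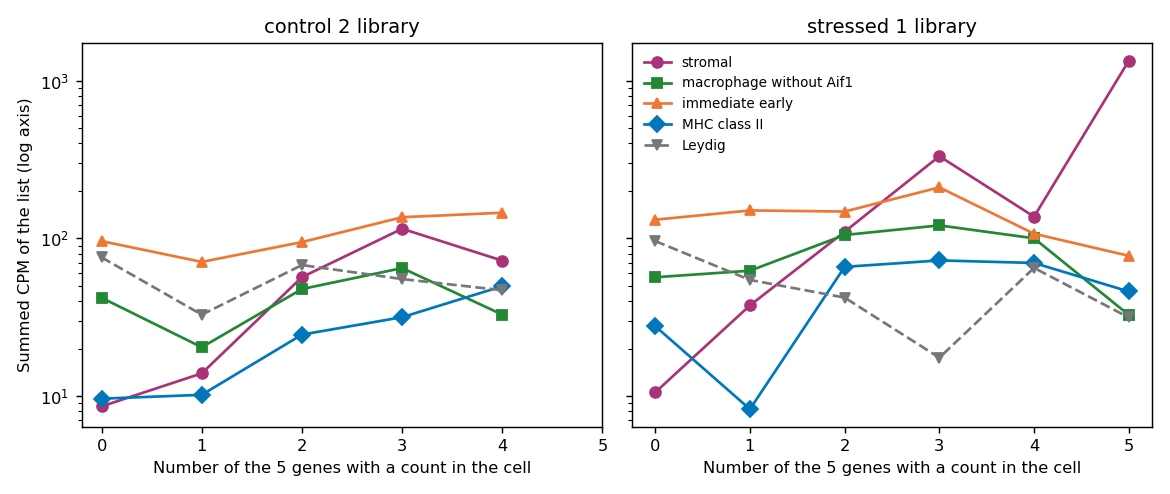
Summed CPM of 5 marker lists on a log axis, for cells grouped by how many of the 5 genes had a count, in the 2 libraries with most members. The sums are not weighted by class. In stressed replicate 1 stromal markers stand at 10.5 CPM with none of the genes, 332 with 3, 137 with 4 and 1335 CPM in the 14 cells with all 5. Leydig markers end lower than they begin in both libraries.

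Most counts of the macrophage list came from a gene that the germ cells also held. The list's 20 genes summed to 2241 to 3197 CPM in members of controls and 1703 to 3582 CPM in those of stressed animals, of which Aif1, an actin-binding protein known from macrophages and also transcribed in spermatids, gave most. It was at 3478 CPM in members and 3056 CPM in other cells of stressed replicate 1, and its mean log2 ratio was -0.01 ± 0.36 (SD, n = 6). Adgre1, which encodes the macrophage antigen F4/80, was lower in members in 5 of 6 libraries, but with cluster weights it was higher in control replicate 2 (0.52), stressed replicate 1 (0.59) and stressed replicate 2 (0.16). Without Aif1 the list summed to 56.6 CPM in cells of stressed replicate 1 with none of the 5 genes and to 105, 121, 99.96 and 32.7 CPM in cells with 2 to 5.

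Some macrophage genes were present in part of the members of the 2 libraries and scarce elsewhere, while others of the list did not follow membership. C1qa, a chain of the complement initiator C1q, was found in 69 of 261 members of stressed replicate 1 and 4 of its 148 other cells, and in 13 of 313 members and 17 of 1488 other cells of control replicate 2. C1qb was found in 47 and 17 members of these libraries, Tyrobp, a signalling adaptor of myeloid receptors, in 50 and 19, and the lysosomal gene Cd68 in 19 and 8. Among other cells, in the same order, C1qb was found in 1 and 17, Tyrobp in 2 and 22 and Cd68 in 2 and 4. Csf1r, the receptor macrophages depend on, was found in 6 and 2 members, and Ptprc, the pan-leukocyte gene, in 4 and 2. Mrc1 and Cx3cr1 of the same list went the other way in stressed replicate 1. They were found there in 9.96% and 1.92% of members and in 21.6% and 7.43% of other cells. Their shares in control replicate 2 were 20.1% and 4.47% of members and 17.0% and 3.49% of other cells. In stressed replicate 1 no macrophage marker was at 0 over all members, and in control replicate 2 Cd14 and Itgam were. In control replicate 1, stressed replicate 2 and stressed replicate 3, Ptprc, Csf1r, Cd68, C1qa, Cd163, Cd14 and Itgam were all at 0 in members, which allows up to 3 counts of each. Control replicate 3 held single cells with 50 Tyrobp, 27 C1qb and 26 C1qc counts. At least 3 macrophage markers were found in 36 of 261 members of stressed replicate 1, 17 of 313 of control replicate 2 and 3 of the remaining libraries, Aif1 not counted. Among other cells they were found in 1 of 148 and 11 of 1488 in the first 2 of these libraries. Elsewhere they were found in 4 and 1 other cells of control replicates 1 and 3 and in 4 and 7 of stressed replicates 2 and 3.

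Class II MHC genes, which act with Cd74, were higher in the members of the same libraries. The list's 10 genes summed to 67.7 CPM in members and 11.2 CPM in weighted other cells of stressed replicate 1, and to 28.0 and 11.1 CPM in control replicate 2, with 7 and 8 genes higher. In control replicates 1 and 3 and stressed replicate 3 the sum was lower in members, at 3.75 against 21.5, 8.76 against 12.7 and 5.54 against 8.61 CPM, and in stressed replicate 2 it was 13.1 against 5.78 CPM. RT1-Db1, a class II beta chain, was at 20.4 against 5.64 CPM in stressed replicate 1, and Ctss, a protease that trims Cd74, at 19.8 against 1.88 CPM. Class II genes are close relatives, so reads may be shared among them. Among lysosomal genes, Psap, the precursor of the saposins, was higher in members of both libraries, at 11.2 against 2.78 and 7.02 against 1.02 CPM. Lamp1, a lysosomal membrane protein, was lower in members in 6 of 6 libraries, at 111 to 175 against 163 to 250.0 CPM, although with cluster weights its log2 ratio was 0.12 in stressed replicate 2.

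Early genes other than Fos moved unevenly with membership. Of the 24 other immediate early genes in the tables, 18 were higher in members of control replicate 2 and 16 in those of stressed replicate 1, and 5 to 7 in the other libraries. Their summed level was 108 CPM in members and 95.6 CPM in weighted other cells of control replicate 2, 155 against 163 CPM in stressed replicate 1, 68.8 against 52.1 CPM in control replicate 3 and 62.7 against 50.5 CPM in stressed replicate 3. It was 38.4 against 58.9 CPM in control replicate 1 and 53.1 against 54.5 CPM in stressed replicate 2. The sum was thus higher in members of 3 libraries and lower in those of 3. The median log2 ratio of the 6 genes at 5 CPM was 0.06, above the -0.22 of all genes at that level. Jun, the partner of Fos in AP-1, was at 30.4 against 26.5 CPM in stressed replicate 1 and 11.7 against 2.12 CPM in control replicate 2, and was higher in members in 4 of 6 libraries. With cluster weights Jun turned to -0.36 in stressed replicate 1 and was higher in 3 of 6. Atf3, an AP-1 related stress gene, was at 22.9 against 7.84 CPM and 4.39 against 1.30 CPM in these libraries, and its log2 ratio with cluster weights was 0.49 in the first. Jund was lower in members in 5 of 6 libraries, and Maff was higher in 3 and lower in 3 (4 and 2 with cluster weights). Heat shock and dissociation genes, a list of 10, had a median log2 ratio of 0.07, with Dnajb1 at 347 to 541 CPM in members and 314 to 420 CPM in other cells.

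Peritubular myoid markers, genes of the contractile cells around the tubules, summed to 38.8 to 92.5 CPM in members. They were higher than in weighted other cells in 5 of 6 libraries, as at 46.8 against 25.2 CPM in control replicate 1 and 62.6 against 37.9 CPM in control replicate 3, and lower in stressed replicate 3 (38.8 against 47.5 CPM). Endothelial markers summed to 2.503 to 20.2 CPM in members, and T and natural killer cell markers to 0 to 13.7 CPM. Granulocyte and mast cell markers were at 0 to 0.283 CPM in members of 5 libraries and at 29.5 CPM in stressed replicate 3, where Cpa3, a mast cell protease, gave all of it. Red cell genes summed to 0 to 19.1 CPM.

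Stressed and control animals were then compared on the summed counts of members, which the rule did not do. The fit held 5 libraries, 2 control and 3 stressed, since control replicate 3 had fewer than 20 members, and p-values measure the spread between animals that each gave 1 library. Of 6507 genes, 0 were called higher (0%) and 0 lower (0%) at an adjusted p under 0.05 by the quasi-likelihood test of edgeR with Benjamini-Hochberg adjustment, 658 had an unadjusted p under 0.05, and the smallest adjusted p was 0.365. DESeq2 called 39 genes, and edgeR called 26 without control replicate 1, 15 without stressed replicate 3, 13 without both libraries rich in members and 0 without any 1 of the other libraries.

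Markers of late spermatids were nearly all on the stressed side in this comparison, and markers of round spermatids on the control side, without passing the test. Of 20 elongating spermatid markers tested, 18 had a positive log2 change with a median of 0.82, and of 17 round spermatid markers 13 had a negative one with a median of -0.95, where the median of all genes tested was -0.04. The smallest adjusted p in either list was 0.428 by edgeR. The share of elongating spermatid-like cells among members moved with them, at 76.9% and 42.5% in the controls of this fit and 76.0% to 92.7% in the stressed animals, and its part was not tested beyond the fit on that class. In elongating spermatid-like members alone 1 gene of 6198 was called by edgeR, and an unadjusted p below 0.05 was reached by 100.

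Smox, Arl9 and Cspp1 were on the stressed side without passing in this fit, and passed under some alternatives. Smox encodes spermine oxidase, which breaks down the polyamine spermine. It was at 0 and 3.47 CPM in members of control replicates 1 and 2 and at 14.4, 17.5 and 75.7 CPM in those of stressed replicates 1 to 3. The groups did not overlap, but the gene was picked by its p in the same libraries. Arl9, an ADP-ribosylation factor-like gene, was at 6180 and 4049 CPM and at 6526, 12917 and 15447 CPM (log2 change 1.66, SE 0.43). Cspp1, a centrosome and spindle pole protein, was at 581 and 465 CPM and at 879, 1211 and 893 CPM (1.41, SE 0.35). Ccdc150 (1.61, SE 0.40) and Ccpg1 (1.33, SE 0.34) completed the 5 with the smallest p, and each of the 5 had an adjusted p of 0.428 by edgeR. Without the filter on low counts edgeR gave an adjusted p of 0.0248 for Smox, 3.77e-06 for Arl9 and 0.0463 for Cspp1, and DESeq2 gave 0.00994 for Arl9 and for Cspp1. Over the alternatives the adjusted p ran up to 1.0 for each of these 3, in elongating spermatid-like cells alone, where the log2 changes were 2.30, 0.52 and 0.71.

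The 5 genes with the smallest p on the control side were Tekt3, Pdzk1ip1, Atp5if1, Fndc11 and Acsbg3. Tekt3, a tektin of the sperm flagellum, was at 701 and 1081 CPM in members of control replicates 1 and 2 and at 278, 178 and 197 CPM in those of stressed replicates 1 to 3 (log2 change -1.54, SE 0.31, adjusted p = 0.365 by edgeR). Its groups did not overlap, but it too was picked by its p in the same libraries. It passed with DESeq2 (adjusted p = 0.00217), and with edgeR without the filter (0.0248) and without control replicate 1 (0.0178), and its log2 change was -0.24 in elongating spermatid-like cells alone (adjusted p = 1.0 by edgeR). Pdzk1ip1 was at 243 and 391 CPM and at 64.5, 43.8 and 77.5 CPM. Atp5if1, an inhibitor of the mitochondrial ATP synthase, was at 282 and 223 CPM and at 73.3, 35.6 and 74.7 CPM. Fndc11 and Acsbg3, a bubblegum family acyl-CoA synthetase gene, had log2 changes of -1.85 and -3.09. Without the filter edgeR also called Pdzk1ip1, Fndc11 and Acsbg3 (adjusted p = 0.02995, 0.00702 and 0.04985).

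A further fit asked whether the difference between members and the other cells of the same animal depended on stress, with each library as its own block. Of 12333 genes 15 were called, all with a lower member-to-other ratio in stressed animals (0.122%), and 0 were called higher (0%), and before adjustment 893 had a p below 0.05 by edgeR. The median over all genes was -0.32, against which the values that follow are to be read. With relative log expression (RLE) scaling it was -0.20 and edgeR called 9. DESeq2 itself called 0, while before adjustment 926 had a p below 0.05. The count was 0 without control replicate 2, 0 without stressed replicate 2 and 0 without both libraries rich in members, and it was 8, 23 and 7 without control replicate 1, stressed replicate 1 and stressed replicate 3.

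In each of the 15 genes every stressed library had lower CPM in members than in other cells, and the ratio in both controls lay above that in all stressed libraries. The genes were chosen by this difference in the same libraries, so the separation is a description and adds no support. Nasp, a histone chaperone, was at 1293 and 971 CPM in members and 2021 and 998 CPM in other cells of control replicates 1 and 2. In stressed replicates 1 to 3 it was at 343, 117 and 414 CPM in members and at 1420, 1054 and 2081 CPM in other cells (log2 difference of the ratios -1.78, SE 0.43, adjusted p = 0.0428 by edgeR, 0.00721 to 1.0 over the alternatives).

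Tbc1d23, a golgin-binding protein of endosome traffic, had the smallest p. It was at 119 and 309 CPM in members and 126 CPM in other cells of each control, and at 67.3, 9.85 and 45.2 CPM in members and 268, 125 and 152 CPM in other cells of stressed replicates 1 to 3 (-2.61, SE 0.51, adjusted p = 0.00444 by edgeR). Rabep2, an effector of the endosomal GTPase Rab5, was at 154 and 232 CPM and at 39.3, 10.4 and 56.3 CPM in members (-2.55, SE 0.52, adjusted p = 0.00459 by edgeR). Haus1, a subunit of the augmin complex that nucleates microtubules on microtubules, was at 46.8 and 51.7 CPM and at 9.94, 3.28 and 3.69 CPM (-2.91, SE 0.72, adjusted p = 0.0452 by edgeR). In members these 3 transcripts were lower in each stressed library than in both controls of this fit. They were chosen by the p of this fit, and the fit on members alone called 0 of 6507 genes lower. Other cells were not weighted by class in this fit. Of the called genes, Tbc1d23, Fndc11 and Fam209 were among the 10 leading genes of clusters classed as round spermatid-like.

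The remaining called genes were of the same direction. Lyzl1, a lysozyme-like gene of sperm unlike Lyz2, had a value of -2.04 (SE 0.46), Odf3l1, of the outer dense fibre family, -2.05 (SE 0.50), Grm3, a metabotropic glutamate receptor, -2.60 (SE 0.57), and Hsfy2, a heat shock factor-like gene, -2.22 (SE 0.53). Pdzk1ip1, Fndc11, RGD1560242, Fam209, Acsbg3, Atp5if1 and ENSRNOG00000063487 lay between -3.12 and -1.90. None of the 15 was called in elongating spermatid-like cells alone, where before adjustment 184 of 8647 genes had a p below 0.05. The value there was -4.66 for Grm3, -3.61 for Acsbg3, -2.55 for Haus1, -2.53 for Atp5if1, -2.27 for Hsfy2, -2.15 for Pdzk1ip1 and -2.04 for ENSRNOG00000063487, where these genes lay between -3.12 and -1.90 over all classes. It was -1.83 for Tbc1d23, -1.80 for Fam209 and -1.71 for Rabep2, between -0.56 and -0.09 for RGD1560242, Lyzl1, Nasp and Fndc11, and 1.44 for Odf3l1. Class makeup moved with the result as in the comparison of members alone: 13 of 17 round spermatid markers were lower (median -1.20) and 18 of 20 elongating spermatid markers higher (median 0.92), with 0 called in either list.

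**Figure D5:**
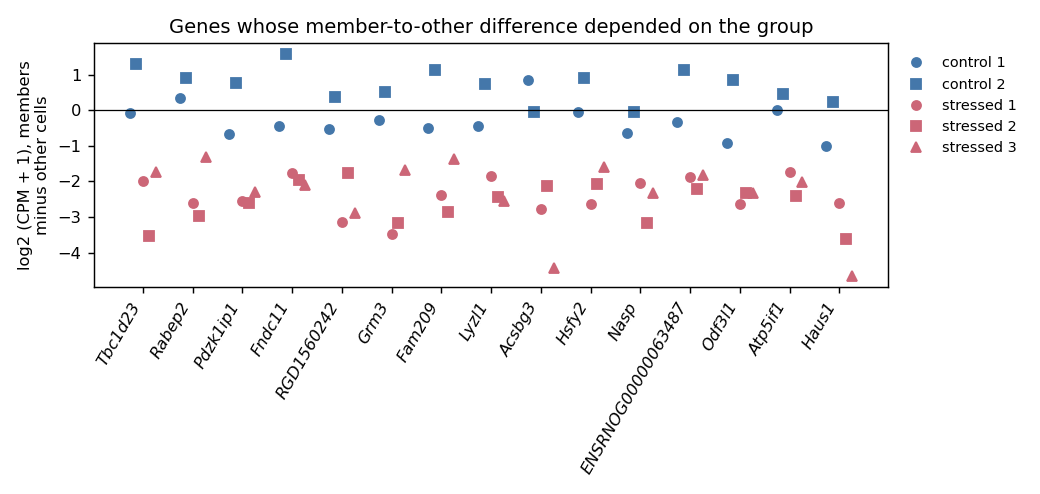
For each of the 15 called genes, the points give log2(CPM + 1) in members minus that in other cells of the same library, controls in blue and stressed animals in red, and the line marks no difference. All stressed libraries lie below both controls, with Haus1 of stressed replicate 3 the lowest at -4.65 and Fndc11 of control replicate 2 the highest at 1.56.

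The member-to-other ratio was higher in stressed animals, without passing, for Hspa1l, the HSP70 of spermatids, and Ceacam6. The level of Hspa1l in members overlapped between the groups. Hspa1l was at 545 and 490.0 CPM in members of control replicates 1 and 2 and at 794, 497 and 666 CPM in those of stressed replicates 1 to 3, with 352 and 828 and then 498, 325 and 201 CPM in other cells (log2 1.45, SE 0.44, adjusted p = 0.164 by edgeR). Ceacam6, a cell adhesion gene, was at 144 and 95.5 CPM and at 223, 187 and 289 CPM in members (1.48, SE 0.48, adjusted p = 0.227 by edgeR). Rph3a and Gabbr2 had values of 2.22 and 2.17, with an adjusted p of 0.152 and 0.175. Gucy1b1 had 0 counts in members of both controls and of stressed replicate 2, and 11 and 5 in those of stressed replicates 1 and 3.

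No macrophage, MHC class II, early or stromal gene was among those called. In the fit on members alone, 3 of 5 macrophage, 7 of 8 immediate early and 2 of 3 MHC class II genes tested had a positive change, and 6 of 6 stromal genes did, with 0 called in each and a smallest adjusted p of 0.524 by edgeR over these lists. In the fit against other cells, 8 of 14 macrophage, 12 of 18 immediate early, 4 of 7 MHC class II and 6 of 10 stromal genes were positive, again with 0 called. The glucocorticoid target list had 1 gene tested among members and 7 against other cells, of which 6 were negative (median -1.22, smallest adjusted p 0.620 by edgeR).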

How the data were processed

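Per the labels' protocols, testis tissue was minced, dissociated and made into single-cell libraries with the Singleron GEXSCOPE kit. The authors deposited, for each library, a table holding the count of each gene in each cell (21170 genes). An aligner, build or cell filter was not given in the sources used here. Their normalized tables were not used. All 11744 cells were kept, none with over 5.00% mitochondrial counts, and no doublet caller was run. The members, gene lists and tests were chosen with earlier results of these data known.

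Cells were clustered with leidenalg 0.10.2 (2000 variable genes, 30 components, 15 neighbours, resolution 1) on genes outside the rule, somatic, immune and early lists. A class name needed at least 3 supporting markers and was checked against the 10 leading genes of a cluster. Of 285 list genes, 24 were not found under that name. Where members and other cells were described, CPM of other cells was weighted to the share of member counts in each class. For the levels of the 5 genes, and in the stress tests, other cells were not weighted. Counts of member and other cells were summed per library with at least 20 members and tested with edgeR 4.0.16 (R 4.3.3: TMM, filterByExpr, robust quasi-likelihood, with library blocks for the difference between members and other cells) or, as an alternative, DESeq2 1.42.0, with Benjamini-Hochberg adjustment over all genes tested and a threshold of 0.05. Single CPM values of members, and of other cells in the stress tests, are plain, without TMM scaling. Scripts were tested on simulated data. Libraries of a group differed in their counts (chi-square over degrees of freedom 163 to 621) and were counted as separate samples. Named genes were the 5, the 15 most raised and 10 most lowered in every library, the 3 most abundant of each list, all called genes and the 5 with the smallest p per direction. The genes shared by control replicate 2 and stressed replicate 1, and those set beside them, were chosen after their values were seen. Alternatives are in the closing section. A gene that the rule for named genes chose is not reported here.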

Additional observations from a re-analysis of the deposited data

Results flagged for a closer look

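In 15 genes the difference between members and other cells of a library depended on the group by the interaction test of edgeR. The log2 difference of the ratios was -2.61 for Tbc1d23, -2.55 for Rabep2, -2.17 for Pdzk1ip1, -2.15 for Fndc11, -2.16 for RGD1560242, -2.60 for Grm3, -2.16 for Fam209 and -2.04 for Lyzl1. It was -3.12 for Acsbg3, -2.22 for Hsfy2, -1.78 for Nasp, -2.00 for ENSRNOG00000063487, -2.05 for Odf3l1, -1.90 for Atp5if1 and -2.91 for Haus1. Controls were represented by 2 libraries, of which control replicate 2 alone had mostly round spermatid-like members. None of the 15 was called in elongating spermatid-like cells alone, where the values ran from -4.66 (Grm3) to 1.44 (Odf3l1), with -2.15 for Pdzk1ip1, -2.53 for Atp5if1 and -0.40 for Nasp.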

How the results depend on the processing

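The member share kept its direction except without stressed replicate 1. Leaving out 1 library gave differences of -5.02 to 26.3 points, and for the single genes -8.69 to 23.6 (Apoe), -3.15 to 14.6 (Fos), -1.58 to 14.9 (Cd74), -1.56 to 16.8 (Selenop) and -1.49 to 8.07 (Lyz2), all lowest without stressed replicate 1. With the replicate number as a block, the difference of 15.8 points had an exact permutation p of 0.75. Genes higher and lower in members of every library (45 and 331) numbered 134 and 1224 with unweighted other cells, 16 higher after thinning, 1860 and 2122 in cells with at least 3 of the genes in control replicate 2 and stressed replicate 1 alone, 169 and 913 without both of these and 188 lower with weights by cluster. Leaving out 1 library gave 73 to 126 and 457 to 605. In the stress test on members, DESeq2 called 39 genes, 14 genes passed without the filter, the replicate block gave 10, the fit without both libraries rich in members 13 and elongating spermatid-like cells 1, and leaving out 1 library 0 to 26. The numbers did not pair the samples beyond a shared number: deviations of same-numbered libraries correlated at -0.22, 0.11 and 0.32. For the member-to-other difference (15), DESeq2 called 0, RLE scaling 9, and 2 genes passed without the filter, with the fit without both libraries 0 and elongating spermatid-like cells 0, and leaving out 1 library 0 to 23. Odf3l1 reversed to 1.44 in elongating spermatid-like cells. Of 306 values of named genes under alternatives, 164 stayed as they were, called or not called, 119 lost a call, 22 gained one and 1 reversed. The lost calls were all of the 15 genes called for the member-to-other difference. Of these 15, 11 kept the call without stressed replicate 1, the most under any alternative, and 0 with DESeq2. The causes were not tested. The fits without 2 libraries, by class and with cluster weights were chosen after seeing the data. The stress tests on cells with at least 3 of the genes could not be fitted, with 1 library per group. In libraries with 17 to 41 members a gene at 5 CPM stands on few counts.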
